A study of Mus musculus with 11 samples.

Results

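The 34 genes described here code for the integrins and for the main non-collagen parts of the basement membrane. They are 20 integrin subunit genes, 10 laminin chain genes, the nidogen genes Nid1 and Nid2, the perlecan gene Hspg2 and the agrin gene Agrn. A gene entered when the array annotation gave it as the only symbol of a probe set, and all 34 genes had such a probe set, out of 19937 genes on the array named in this way. Of the 34, 33 passed the filter on low values (a log2 intensity above 6 in 2 or more arrays of any group). Itgb6, the partner of the alpha-v subunit in epithelia, was the member that did not pass, at 5.30 to 5.68 over the 11 arrays.

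RNA was profiled in mouse embryonic fibroblasts (MEFs) of a C57BL/6 x 129/SvJ background, p53LSL/LSL, in which a stop cassette silences both p53 alleles until Cre removes it. In all 4 groups an adenovirus carrying Cre restored p53 over 24 h (multiplicity of infection 5), and all cells received 150 nM doxorubicin, a DNA-damaging drug, for 12 h before harvest. The groups were p53 siRNA (3 arrays) with control siRNA (3 arrays), and Pint ASO (3 arrays) with control ASO (2 arrays), where an ASO is an antisense oligonucleotide and Pint is a long intergenic non-coding RNA induced by p53. The study's methods describe the Pint ASO as a pool of oligonucleotides. No group was left without doxorubicin or without Cre, so the values describe damaged, p53-restored cells only. The labels do not say that replicates were separate cultures, and p-values then measure only the spread between these samples, which may be technical.

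Integrins are receptors made of 1 alpha and 1 beta subunit that span the cell membrane and tie the matrix outside the cell to the actin or intermediate filament cytoskeleton inside it. The alpha subunit largely sets the ligand, which may be collagen, laminin or proteins that carry an RGD motif such as fibronectin and vitronectin. Laminins are cross-shaped trimers of an alpha, a beta and a gamma chain that form the sheet of the basement membrane. Nidogens and the heparan sulphate proteoglycans perlecan and agrin join that sheet to collagen IV and to cell surface receptors. Fibroblasts use integrins mainly to grip collagen and fibronectin, and they make many basement membrane proteins without resting on such a membrane themselves.

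The targeted RNA was checked first. The Lncpint probe set lay at 8.48 to 8.60 in Pint ASO arrays and at 10.23 to 10.41 in control ASO arrays, so that 29.2% of the control level was left. With p53 siRNA it lay at 9.02 to 9.13, against 9.43 to 9.88 with control siRNA. The probe set of p53 itself was not analysed here. Array medians ranged from 7.31 to 7.38 and correlations between arrays from 0.993 to 0.995 within groups. All 10 fibroblast markers passed the filter, and so did 8 of 11 epithelial, 9 of 10 endothelial and 9 of 11 leukocyte markers with a probe set. The rest of these 3 lists stayed at or under 6 in every array, namely Epcam, Esrp1 and Grhl2 (epithelial), Emcn (endothelial), and Ptprc and Adgre1 (leukocyte).

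Of the 33 tested members, 21 passed the test with at least 1 knockdown and 12 with neither. The share of all probe sets called with at least 1 knockdown is not given here, so shares are compared for each knockdown. With p53 siRNA 8 rose and 9 fell, which is 24.2% and 27.3% of the tested members, where 7.97% of all probe sets tested rose and 8.96% fell. With Pint ASO 4 rose and 11 fell, which is 12.1% and 33.3%, where 8.49% of all probe sets rose and 10.7% fell. The study had reported interaction of matrix and receptors as an enriched pathway among genes changed by Pint ASO in these samples. The Pint ASO shares are therefore not independent of that report. The largest falls with p53 siRNA were in Itga2 and Itga6, to 40.5% and 48.2% of the control siRNA level, and the largest rise was in Itga11, to 171% of it. With Pint ASO the largest falls were in Itgb8 and Itga1, to 52.4% and 61.0% of the control ASO level. A call is an adjusted p under 0.05 from limma's moderated test with Benjamini-Hochberg adjustment over all 26038 probe sets tested. In bulk RNA, fewer cells of a type and less RNA per cell cannot be told apart.

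**Figure D1:**
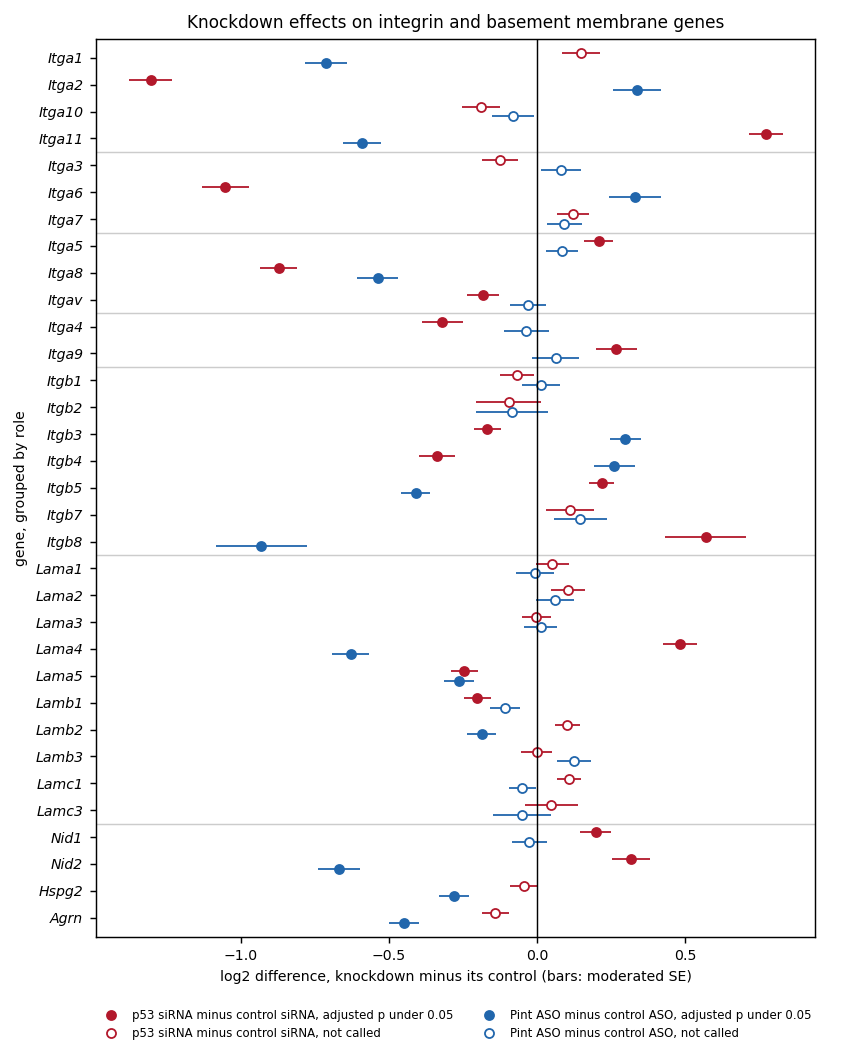
The log2 difference of each tested member (horizontal axis) with its moderated standard error, p53 siRNA minus control siRNA in red and Pint ASO minus control ASO in blue, with genes grouped by role down the vertical axis and filled points for adjusted p under 0.05. Itga2 and Itga6 lie farthest to the left with p53 siRNA, at -1.31 and -1.05, and Itgb8 with Pint ASO, at -0.93.

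The collagen receptors were among the members that moved most. Itga2, the alpha-2 subunit that binds fibrillar collagen, had 8.22, 7.99 and 7.98 in p53 siRNA arrays, against 9.40, 9.35 and 9.36 in control siRNA arrays. In the ASO arm it had 10.26, 10.34 and 10.28 with Pint ASO, against 10.05 and 9.86 with control ASO. All p53 siRNA arrays lay below their controls and all Pint ASO arrays above theirs, with no overlap in either comparison. Itga2 thus fell by 1.31 on the log2 scale with p53 siRNA (SE 0.07, adjusted p = 5.1e-06) and rose with Pint ASO by 0.34 (SE 0.08, adjusted p = 0.0189).

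Itga11, the fibrillar collagen receptor subunit of fibroblasts, ran the other way. Its values were 9.58, 9.57 and 9.63 with p53 siRNA, against 8.75, 8.86 and 8.86 with control siRNA. They were 8.05, 7.99 and 8.13 with Pint ASO, against 8.59 and 8.71 with control ASO. Within each arm the groups did not overlap, p53 siRNA arrays being higher than control siRNA and Pint ASO arrays lower than control ASO. The difference was 0.77 with p53 siRNA (SE 0.06, adjusted p = 2.03e-05) and -0.59 with Pint ASO (SE 0.06, adjusted p = 0.000277).

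Itga1, the alpha-1 subunit, which binds collagen IV as well as fibrillar collagen, passed the test with Pint ASO. It had 7.64, 7.62 and 7.42 in Pint ASO arrays, against 8.27 and 8.27 in control ASO arrays, a difference of -0.71 (SE 0.07, adjusted p = 0.000204). With p53 siRNA it had 8.88, 8.77 and 8.86, against 8.73, 8.64 and 8.70 with control siRNA, a difference of 0.15 that did not pass (SE 0.06, adjusted p = 0.17). The Pint ASO arrays lay well below both control ASO arrays, and the siRNA groups did not overlap either. Itga10, a collagen receptor subunit of chondrocytes, gave -0.19 with p53 siRNA (adjusted p = 0.0814) and -0.08 with Pint ASO (adjusted p = 0.515).

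Among the subunits that bind laminin, Itga6 passed both tests and Itga3 and Itga7 passed neither. Itga6, which pairs with the beta-1 or the beta-4 subunit, had 10.15, 10.19 and 10.18 in p53 siRNA arrays, against 11.29, 11.17 and 11.23 in control siRNA arrays. It had 11.72, 11.82 and 11.52 with Pint ASO, against 11.44 and 11.27 with control ASO. As with Itga2, the knockdown arrays lay below their controls with p53 siRNA and above them with Pint ASO, with no overlap. The fall with p53 siRNA was 1.05 (SE 0.08, adjusted p = 2.23e-05) and the rise with Pint ASO 0.33 (SE 0.09, adjusted p = 0.0271). Itga3, the receptor subunit of epithelial laminins, gave -0.12 with p53 siRNA (adjusted p = 0.224) and 0.08 with Pint ASO (adjusted p = 0.498). Itga7, the laminin receptor subunit of muscle, gave 0.12 with p53 siRNA (adjusted p = 0.173) and 0.09 with Pint ASO (adjusted p = 0.355).

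The Pint ASO calls of Itga2 and Itga6 depended on single arrays. The Itga2 call was lost without control ASO replicate 2 or Pint ASO replicate 2 (adjusted p = 0.0528 to 0.131), and the Itga6 call without control ASO replicate 2 or without Pint ASO replicate 1 or 2 (adjusted p = 0.0673 to 0.165).

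**Figure D2:**
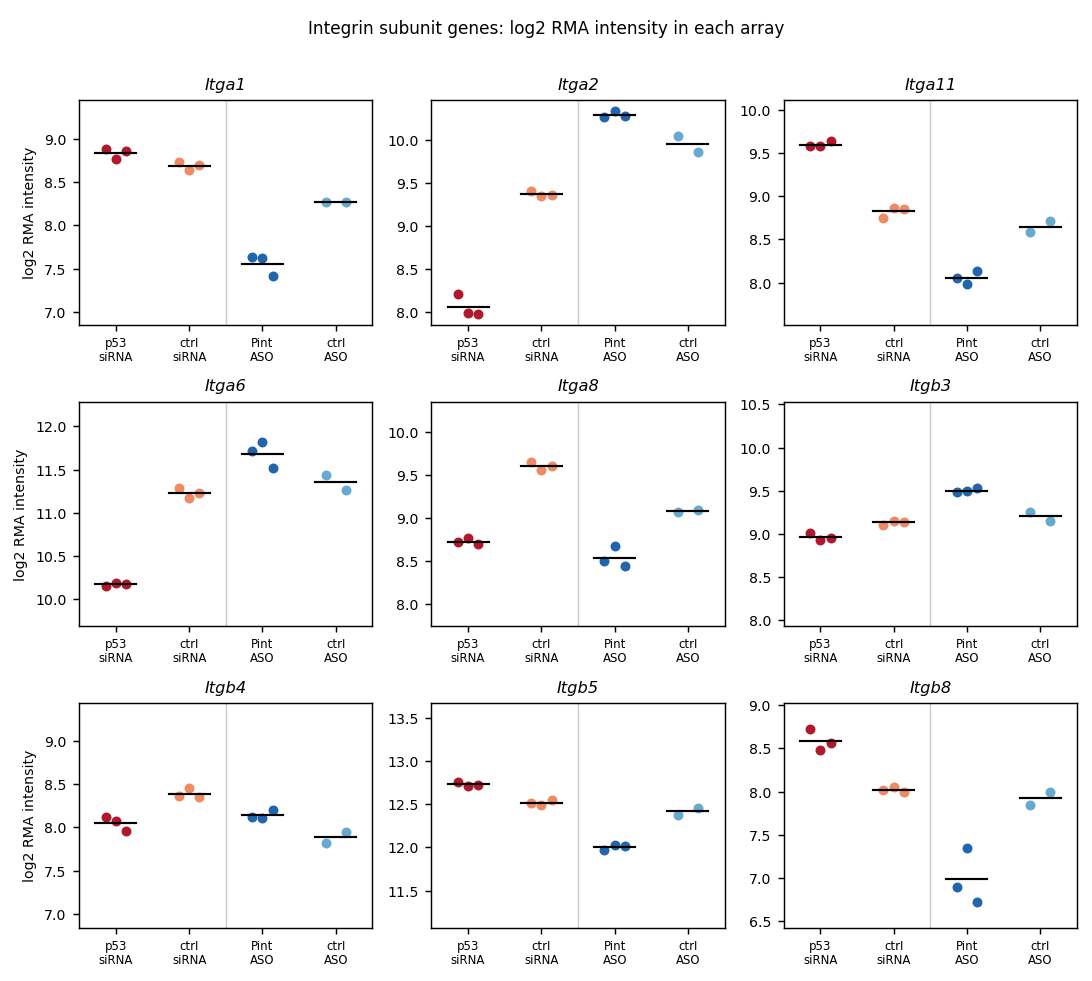
Log2 RMA intensity (vertical axis, the same span of 2.6 in every panel) of 9 integrin subunit genes per array (points) in the 4 groups, lines marking group means. Against their own controls, Itga2 and Itga6 are lower with p53 siRNA and higher with Pint ASO, while Itga11, Itgb5 and Itgb8 are higher with p53 siRNA and lower with Pint ASO.

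Itga8 fell with both knockdowns. Its product is the receptor subunit for nephronectin, known for its part in kidney development. Itga8 had 8.72, 8.77 and 8.70 with p53 siRNA, against 9.65, 9.56 and 9.60 with control siRNA, and the fall was 0.87 (SE 0.06, adjusted p = 1.73e-05). It had 8.50, 8.68 and 8.45 with Pint ASO, against 9.06 and 9.09 with control ASO, and the fall was 0.54 (SE 0.07, adjusted p = 0.000758). In each arm all knockdown arrays lay below all arrays of their own control.

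The other RGD-binding alpha subunits passed the test with p53 siRNA, by small amounts. Itga5, which with beta-1 forms the fibronectin receptor, had 12.20, 12.26 and 12.22 with p53 siRNA, against 12.05, 11.97 and 12.03 with control siRNA, a difference of 0.21 (SE 0.05, adjusted p = 0.0163). Itgav, the subunit shared by the vitronectin receptors, had 12.49, 12.39 and 12.38, against 12.60, 12.59 and 12.62, a difference of -0.18 (SE 0.05, adjusted p = 0.0457). The p53 siRNA arrays lay above all control siRNA arrays for Itga5 and below them for Itgav. With Pint ASO Itga5 had 12.18, 12.29 and 12.29, against 12.16 and 12.19 with control ASO, a difference of 0.08 that did not pass (adjusted p = 0.358). Itgav had 12.56, 12.71 and 12.56 with Pint ASO, against 12.66 and 12.62 with control ASO, a difference of -0.03 (adjusted p = 0.79). The ASO groups overlapped in both genes.

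The subunits alpha-4 and alpha-9 form a small branch of their own, which binds VCAM-1, tenascin and fibronectin. Itga4 had 7.43, 7.34 and 7.17 with p53 siRNA, against 7.62, 7.62 and 7.66 with control siRNA, a difference of -0.32 (SE 0.07, adjusted p = 0.0108). Itga9 had 7.94, 7.77 and 7.81, against 7.68, 7.50 and 7.54, a difference of 0.27 (SE 0.07, adjusted p = 0.0283). In each the p53 siRNA and control siRNA arrays did not overlap, with Itga4 lower and Itga9 higher in p53 siRNA arrays. Itga4 had 7.51, 7.40 and 7.46 with Pint ASO, against 7.54 and 7.45 with control ASO, a difference of -0.04 (adjusted p = 0.809). Itga9 had 7.62, 7.70 and 7.76 with Pint ASO, against 7.70 and 7.56 with control ASO, a difference of 0.06 (adjusted p = 0.662). In the ASO arm the arrays of both genes overlapped.

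Of the small p53 siRNA calls in these branches, that of Itga4 stood in every fit that left out 1 array. The Itga5 call was lost without control siRNA replicate 2 or p53 siRNA replicate 2 or 3 (adjusted p = 0.0505 to 0.0627), and the Itga9 call without control siRNA replicate 2 or 3 or p53 siRNA replicate 1 or 3 (adjusted p = 0.0596 to 0.0975) and in a fit of the siRNA arm alone (adjusted p = 0.0513). The Itgav call was lost in 8 of the 11 such fits (adjusted p = 0.0561 to 0.143), namely those without control siRNA replicate 1, 2 or 3, p53 siRNA replicate 2 or 3, control ASO replicate 1 or 2, or Pint ASO replicate 1, and also with no filter (adjusted p = 0.0692) and with median centring (adjusted p = 0.118).

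Among the 7 tested beta subunits, 4 passed the test with each knockdown. They were the same genes, Itgb3, Itgb4, Itgb5 and Itgb8, each in opposite directions. With each knockdown 2 rose and 2 fell (28.6% each). Of all probe sets, 7.97% rose and 8.96% fell with p53 siRNA, and 8.49% rose and 10.7% fell with Pint ASO. Opposite calls were made for 3.54% of all probe sets. Some calls of these genes were lost when 1 array was left out, as given below. Itgb1, the common partner of most alpha subunits, lay between 12.33 and 12.55 in all arrays, with differences of -0.07 with p53 siRNA (95% interval -0.20 to 0.06) and 0.01 with Pint ASO (95% interval -0.13 to 0.15). Itgb2, the beta subunit of leukocytes, gave -0.10 with p53 siRNA (adjusted p = 0.626) and -0.08 with Pint ASO (adjusted p = 0.71). Itgb7, a lymphocyte subunit, gave 0.11 with p53 siRNA (adjusted p = 0.422) and 0.15 with Pint ASO (adjusted p = 0.328).

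Itgb8, whose product pairs with alpha-v and activates latent TGF-beta, had the widest spread of these. It had 8.72, 8.49 and 8.56 with p53 siRNA, against 8.01, 8.05 and 8.00 with control siRNA, a difference of 0.57 (SE 0.14, adjusted p = 0.0193). It had 6.90, 7.34 and 6.72 with Pint ASO, against 7.85 and 7.99 with control ASO, a difference of -0.93 (SE 0.15, adjusted p = 0.00271). The Pint ASO arrays differed among themselves more than those of any other group, and all of them lay below both control ASO arrays. The p53 siRNA arrays all lay above those of control siRNA.

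Itgb5, another alpha-v partner in vitronectin receptors, changed in the same directions with less spread. It had 12.76, 12.71 and 12.72 with p53 siRNA, against 12.51, 12.49 and 12.54 with control siRNA, a difference of 0.22 (SE 0.04, adjusted p = 0.00644). It had 11.97, 12.03 and 12.02 with Pint ASO, against 12.37 and 12.46 with control ASO, a difference of -0.41 (SE 0.05, adjusted p = 0.000424). Again the groups did not overlap within either arm.

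Itgb3, known from platelets and, as a partner of alpha-v, from vitronectin receptors, changed in the directions of Itga2. It had 9.01, 8.93 and 8.95 with p53 siRNA, against 9.10, 9.15 and 9.14 with control siRNA, a difference of -0.17 (SE 0.05, adjusted p = 0.0342). It had 9.48, 9.49 and 9.53 with Pint ASO, against 9.26 and 9.15 with control ASO, a difference of 0.30 (SE 0.05, adjusted p = 0.00359). Its arrays lay below their controls with p53 siRNA and above them with Pint ASO, with no overlap.

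Itgb4 codes for the subunit that pairs with alpha-6 alone and anchors hemidesmosomes to intermediate filaments. It had 8.12, 8.08 and 7.96 with p53 siRNA, against 8.36, 8.45 and 8.35 with control siRNA, a difference of -0.34 (SE 0.06, adjusted p = 0.00407). It had 8.12, 8.11 and 8.20 with Pint ASO, against 7.82 and 7.95 with control ASO, a difference of 0.26 (SE 0.07, adjusted p = 0.0246). The groups did not overlap within either arm. Against their own controls, Itgb4 and its partner Itga6 thus both fell with p53 siRNA and both rose with Pint ASO. Both Pint ASO calls were lost in some fits that left out 1 array. For Itgb4 control ASO itself differed from control siRNA by -0.505.

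For the beta subunits, the p53 siRNA call of Itgb3 was lost without control siRNA replicate 1, 2 or 3 or p53 siRNA replicate 2 or 3 (adjusted p = 0.0663 to 0.115), with no filter (adjusted p = 0.0543), with quantile normalization applied again (adjusted p = 0.0659) and with median centring (adjusted p = 0.0701). That of Itgb8 was lost without control siRNA replicate 1 or 3 or p53 siRNA replicate 1 or 3 (adjusted p = 0.0516 to 0.0706), and the Pint ASO call of Itgb4 without control ASO replicate 1 or Pint ASO replicate 1 or 3 (adjusted p = 0.0508 to 0.169).

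Of the 14 basement membrane members, 6 fell and 0 rose with Pint ASO, where 10.7% of all probe sets fell and 8.49% rose. With p53 siRNA 3 rose and 2 fell, where 7.97% of all probe sets rose and 8.96% fell. Lama4, the laminin alpha-4 chain of vessel walls and mesenchyme, had 11.04, 11.02 and 10.99 with p53 siRNA, against 10.56, 10.52 and 10.51 with control siRNA, a difference of 0.48 (SE 0.06, adjusted p = 0.000328). It had 9.59, 9.64 and 9.43 with Pint ASO, against 10.20 and 10.16 with control ASO, a difference of -0.63 (SE 0.06, adjusted p = 0.0002). All p53 siRNA arrays lay above control siRNA and all Pint ASO arrays below control ASO.

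Lama5, the alpha-5 chain of many epithelial and vascular basement membranes, fell with both knockdowns. It had 9.41, 9.43 and 9.44 with p53 siRNA, against 9.63, 9.70 and 9.68 with control siRNA, a difference of -0.25 (SE 0.05, adjusted p = 0.00482). It had 9.16, 9.27 and 9.27 with Pint ASO, against 9.48 and 9.52 with control ASO, a difference of -0.26 (SE 0.05, adjusted p = 0.00621). In each arm the knockdown arrays lay below all arrays of their control.

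The beta chains Lamb1 and Lamb2 each passed 1 of the tests. Lamb1, the most widely made beta chain, had 11.16, 11.20 and 11.16 with p53 siRNA, against 11.41, 11.37 and 11.34 with control siRNA, a difference of -0.20 (SE 0.05, adjusted p = 0.0144). With Pint ASO Lamb1 had 11.16, 11.23 and 11.23, against 11.37 and 11.26 with control ASO, a difference of -0.11 that did not pass (adjusted p = 0.188). Its knockdown arrays lay below those of the control in both arms. Lamb2, the beta-2 chain of the neuromuscular junction and the kidney filter, had 10.55, 10.61 and 10.64 with Pint ASO, against 10.82 and 10.76 with control ASO, a difference of -0.19 (SE 0.05, adjusted p = 0.0259). With p53 siRNA Lamb2 averaged 11.01, against 10.91 with control siRNA, a difference of 0.10 (adjusted p = 0.159). The Pint ASO and control ASO arrays of Lamb2 did not overlap. The Lamb1 call was lost without control siRNA replicate 1 or p53 siRNA replicate 3 (adjusted p = 0.0523 to 0.0603), and the Lamb2 call without control ASO replicate 1 or 2 or Pint ASO replicate 1 (adjusted p = 0.0555 to 0.144).

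The remaining laminin chains passed neither test. Lamc1, the gamma-1 chain found in most laminin trimers, had 11.31, 11.28 and 11.26 with p53 siRNA, against 11.18, 11.20 and 11.15 with control siRNA, a difference of 0.11 (adjusted p = 0.113) although the groups did not overlap. With Pint ASO Lamc1 gave -0.05 (adjusted p = 0.526). Lama3 and Lamb3, the chains of the epithelial laminin that anchors skin, gave differences between -0.002 and 0.12 over both knockdowns. Lama1, the alpha chain of the early embryo, Lama2, that of muscle and peripheral nerve, and Lamc3 gave differences between -0.05 and 0.10. Lama1 (6.73 to 6.94) and Lama3 (6.98 to 7.14) lay under the array medians of 7.31 to 7.38. Lama2 (7.23 to 7.58) and Lamb3 (7.23 to 7.44) lay around them. Identical values recurred across arrays in Lama3 (7.0781) and Lama2 (7.3988). Whether these low values reflect RNA of the genes was not tested.

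The nidogens differed from each other. Nid2 had 9.58, 9.62 and 9.60 with p53 siRNA, against 9.31, 9.24 and 9.30 with control siRNA, a difference of 0.32 (SE 0.06, adjusted p = 0.00734). It had 8.54, 8.70 and 8.43 with Pint ASO, against 9.22 and 9.22 with control ASO, a difference of -0.67 (SE 0.07, adjusted p = 0.000258). For Nid2 the groups did not overlap within either arm. Nid1 had 12.20, 12.19 and 12.19 with p53 siRNA, against 11.97, 11.99 and 12.03 with control siRNA, a difference of 0.20 (SE 0.05, adjusted p = 0.0283). With Pint ASO Nid1 had 12.05, 12.17 and 12.24, against 12.17 and 12.19 with control ASO, overlapping values with a difference of -0.03 (adjusted p = 0.817). The Nid1 call was lost when any 1 of the 6 siRNA-arm arrays was left out (adjusted p = 0.0558 to 0.0965).

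Both heparan sulphate proteoglycan genes fell with Pint ASO. Hspg2, the gene of perlecan, had 11.81, 11.94 and 11.88 with Pint ASO, against 12.13 and 12.19 with control ASO, a difference of -0.28 (SE 0.05, adjusted p = 0.00435), and -0.05 with p53 siRNA (adjusted p = 0.57). Agrn, the gene of agrin, which clusters acetylcholine receptors at the neuromuscular junction, had 10.64, 10.78 and 10.67 with Pint ASO, against 11.14 and 11.15 with control ASO, a difference of -0.45 (SE 0.05, adjusted p = 0.000348). In both genes all Pint ASO arrays lay below both control ASO arrays. With p53 siRNA Agrn had 11.17, 11.17 and 11.19, against 11.30, 11.31 and 11.34 with control siRNA, a difference of -0.14 that did not pass (adjusted p = 0.0634), although it passed with intensity trend and robust moderation (adjusted p = 0.0278) and without Pint ASO replicate 2 (adjusted p = 0.0376).

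**Figure D3:**
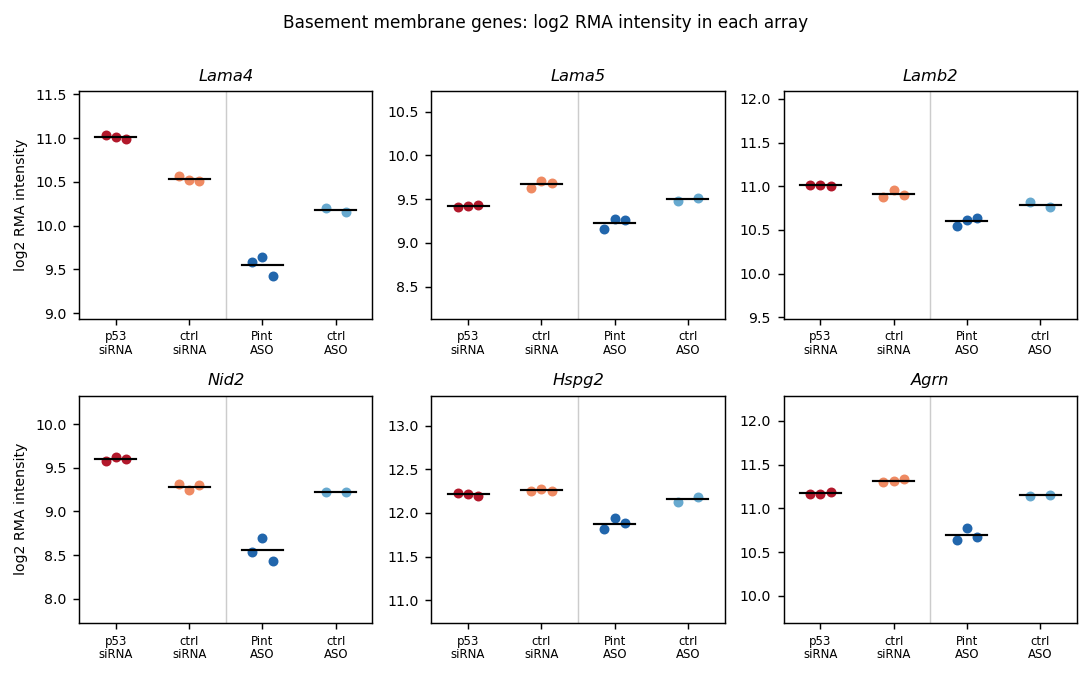
Log2 RMA intensity (vertical axis, the same span of 2.6 in every panel) of 6 basement membrane genes that fell with Pint ASO, per array (points) in the 4 groups, lines marking group means. The Pint ASO arrays lie below control ASO in all 6 panels, and Lama4 and Nid2 lie above control siRNA with p53 siRNA.

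Among members that did not pass, the log2 difference ranged from -0.19 to 0.15 with p53 siRNA (16 members, 95% intervals within -0.34 to 0.29) and from -0.11 to 0.15 with Pint ASO (18 members, 95% intervals within -0.36 to 0.35). The spread was estimated from all 4 groups together, since control ASO has 2 arrays. Fitted on the ASO arm alone, 7 of the 15 members called with Pint ASO kept their call, all of them lower, while Itga2, Itga6, Itgb3, Itgb4, Itgb8, Lama5, Lamb2 and Hspg2 lost it. At B over 3, the cut-off the study names for its gene counts, 5 members were called with p53 siRNA and 6 with Pint ASO. It was applied here without the study's further limits on fold change and with a wider filter. The share of all probe sets at B over 3 is not given here, so these counts cannot be set against it. At adjusted p under 0.05, the p53 siRNA count was 10 without p53 siRNA replicate 3. All 17 and all 15 called members had arrays that did not overlap, and in total 26 of 33 members did not overlap with p53 siRNA, where 35.7% of all probe sets did not, and 18 of 33 with Pint ASO, where 40.4% did not.

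Both knockdowns were called for 11 members, and these fell into 3 sets. Itga11, Itgb5, Itgb8, Lama4 and Nid2 rose with p53 siRNA and fell with Pint ASO. Itga2, Itga6, Itgb3 and Itgb4 fell with p53 siRNA and rose with Pint ASO. Itga8 and Lama5 fell with both, and 0 members rose with both. Opposite calls were thus made for 9 members, or 27.3% of those tested, where 3.54% of all probe sets had opposite calls, and calls in the same direction for 2 members, or 6.06%, where 3.11% of all probe sets had them. The knockdowns do not share control arrays.

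**Figure D4:**
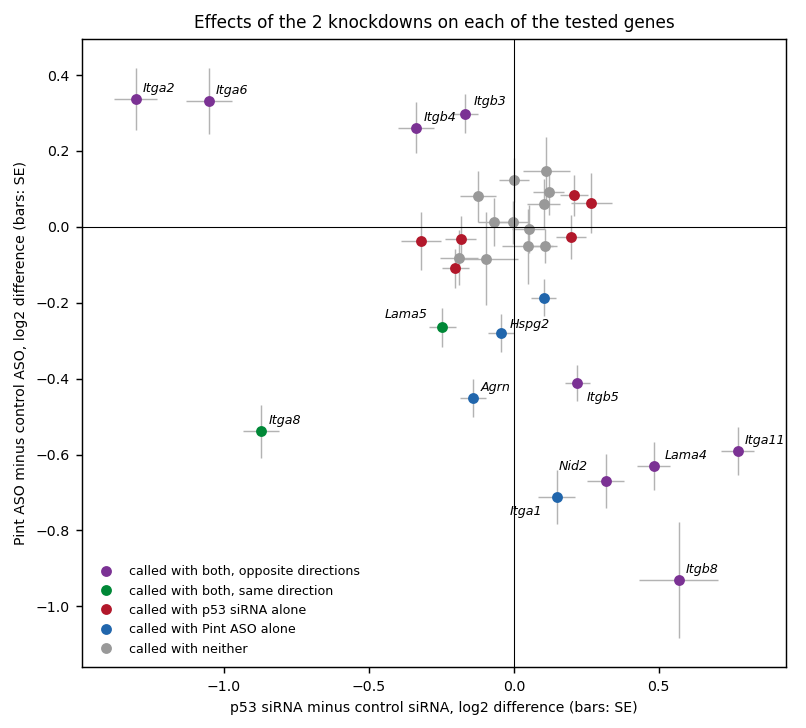
The log2 difference Pint ASO minus control ASO (vertical axis) against the log2 difference p53 siRNA minus control siRNA (horizontal axis) for each tested member, with standard errors as bars and colours for which tests were passed. The 9 members called in opposite directions lie at the upper left and lower right, with Itga2 at -1.31 and 0.34 and Itga11 at 0.77 and -0.59.

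Whether the effects of the knockdowns differed was tested as an interaction, the Pint effect minus the p53 effect. It passed for 14 of the 33 members, or 42.4%, where it passed for 18.5% of all probe sets. The 9 members called in opposite directions all passed. For them this adds no separate evidence, since effects already called with opposite signs in the same arrays all but fix the outcome. The largest differences were in Itga2 at 1.64 (SE 0.11, adjusted p = 1.93e-05) and Itgb8 at -1.50 (SE 0.21, adjusted p = 0.000906). For Lama5, which fell with both, the difference was -0.02 (95% interval -0.17 to 0.14, adjusted p = 0.915), while Itga8 fell more with p53 siRNA, with a difference of 0.33 (SE 0.09, adjusted p = 0.0348) that lost its call with no filter (adjusted p = 0.0532) and with median centring (adjusted p = 0.0866). The call of Hspg2 was lost with no filter (adjusted p = 0.0627). Itga1, Lamb2, Hspg2 and Agrn, called with Pint ASO and not with p53 siRNA, each passed the test of the difference. Itga4, Itga5, Itga9, Itgav, Lamb1 and Nid1, called with p53 siRNA and not with Pint ASO, did not pass it, so a difference between their responses to the knockdowns was not shown.

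The controls also differed from each other in 5 members, or 15.2%, where 4.02% of all probe sets differed in either direction. Itga2 was the 1 member higher with control ASO, by 0.59 (SE 0.08, adjusted p = 0.00615). Lower in control ASO were Itga8 by 0.52 (adjusted p = 0.00485), Itgb4 by 0.51 (adjusted p = 0.00496), Itga1 by 0.42 (adjusted p = 0.0147) and Lama4 by 0.35 (adjusted p = 0.0177). In all 5 the control groups did not overlap, and each knockdown is therefore set against its own control alone. Kind of oligonucleotide and any other difference between the arms cannot be told apart. The count was 2 without control ASO replicate 1, 3 without control ASO replicate 2 or control siRNA replicate 1 or 3, and 0 when only the control groups were fitted.

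A window of 300 bases around the start of a gene was taken from a table of RefSeq promoter sequences (build GRCm38.p6), in which 23 of the 34 members were matched, with 27 windows. The 150 bases before the start are shown for Itga2, Itga8, Itga11 and Itgb8, which changed by large amounts, and for Hspg2, as an example of a start rich in GC boxes, the letters GGGCGG on either strand, given in capitals. The windows lie at chr13:114932101-114932250 on the minus strand for Itga2, chr2:12301945-12302094 on the minus strand for Itga8, chr9:62677705-62677854 on the plus strand for Itga11, chr12:119238277-119238426 on the minus strand for Itgb8 and chr4:137468653-137468802 on the plus strand for Hspg2.
Itga2: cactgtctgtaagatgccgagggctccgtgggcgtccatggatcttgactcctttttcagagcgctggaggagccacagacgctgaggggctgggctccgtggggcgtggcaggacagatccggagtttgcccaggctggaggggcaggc
Itga8: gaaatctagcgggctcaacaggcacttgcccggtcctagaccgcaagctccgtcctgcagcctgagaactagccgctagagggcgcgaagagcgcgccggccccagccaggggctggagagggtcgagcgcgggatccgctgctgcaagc
Itga11: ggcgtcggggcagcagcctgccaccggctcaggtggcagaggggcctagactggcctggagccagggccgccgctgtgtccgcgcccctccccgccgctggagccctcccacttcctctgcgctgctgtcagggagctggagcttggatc
Itgb8: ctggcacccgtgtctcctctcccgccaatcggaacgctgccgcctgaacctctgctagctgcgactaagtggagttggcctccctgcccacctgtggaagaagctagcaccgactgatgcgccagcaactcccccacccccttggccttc
Hspg2: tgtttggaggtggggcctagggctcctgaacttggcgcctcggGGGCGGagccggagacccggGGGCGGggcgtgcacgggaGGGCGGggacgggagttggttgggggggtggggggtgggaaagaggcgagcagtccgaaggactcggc

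The 150 bases of Hspg2 hold 3 GC boxes, and those of Itga2, Itga8, Itga11 and Itgb8 hold 0. In the full windows, which run 250 bases before and 50 bases after the start, Hspg2 had 5 boxes, Lama5 had 4 and Itgb5 had 3. The windows of Agrn had 12 and 2, and those of Itga3 had 3 and 1. Of the 27 windows, 15 held a GC box, in 13 members, where 35.7% of the 32851 windows in the table held one. Of these members, Hspg2, Agrn, Lama5 and Itgb5 fell with Pint ASO and Itga2 rose. The others, Itga3, Itga4, Itga5, Itgav, Itgb1, Lama2, Lamb1 and Nid1, were not called with it. Itga8, Itga11, Itgb8, Itga1 and Lamb2, which also fell with Pint ASO, had no match. Itga6, Itgb3, Itgb4, Lama4 and Nid2, also called with it, had no window. Searched on both strands, the AP-1 motif TGANTCA was in windows of Itga3 and Itga9 (7.81% of all windows), and the TATA box TATAAA (13.6%) and the E-box CACGTG (7.15%) were in 0 of the 27. A p53 half-site, a search added after the values were seen, was in windows of Itga9 and Nid1 (8.36% of all windows). Both genes rose with p53 siRNA, and a match in these letters is not evidence of binding.

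Other genes of the pathway were counted in 4 lists. Integrin adaptors and focal adhesion genes carry the signal inside the cell, and with p53 siRNA 7 of 36 rose and 3 fell, while with Pint ASO 6 rose and 4 fell. The shares that fell, 8.33% with p53 siRNA and 11.1% with Pint ASO, are near the 8.96% and 10.7% of all probe sets, and the shares that rose were 19.4% and 16.7%, where 7.97% and 8.49% of all probe sets rose. With p53 siRNA the tensin gene Tns2 rose by 0.52, Tns3 by 0.35 and the talin gene Tln2 by 0.29, and the kinase gene Ptk2b fell by 0.94, the parvin gene Parvb by 0.80 and Src by 0.26. With Pint ASO the scaffold gene Bcar1 rose by 0.47, the kindlin gene Fermt3 by 0.36 and Parvb by 0.32, and Tln2 fell by 0.42, the caveolin gene Cav1 by 0.39 and Tns2 by 0.22. Tns2, Tln2, Cav1, Parvb and Src were called in opposite directions with the knockdowns. The study drew the extracellular matrix and its receptors as a theme from these samples. Counts in the lists of matrix genes, and among the integrin and basement membrane members, are therefore not independent evidence of an excess or a direction.

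Of 23 other basement membrane components, 6 rose and 4 fell with p53 siRNA (26.1% and 17.4%), where 7.97% of all probe sets rose and 8.96% fell. With Pint ASO 0 rose and 6 fell (0% and 26.1%), where 8.49% of all probe sets rose and 10.7% fell. The calcium-binding matrix gene Smoc1 rose with p53 siRNA by 0.65, the fibulin gene Fbln1 by 0.35 and the peroxidasin gene Pxdn by 0.31, and the collagen gene Col18a1 fell by 0.67, Smoc2 by 0.43 and the nephronectin gene Npnt by 0.27. Fbln1 fell with Pint ASO by 0.57, the netrin gene Ntn1 by 0.49 and the collagen IV gene Col4a5 by 0.35. Npnt, whose product is the ligand of the alpha-8 integrin, also fell with Pint ASO, by 0.23, so that it and Itga8 both fell with both knockdowns, a pair picked out after the values were seen.

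Receptors for the basement membrane other than integrins held the largest share of falls with Pint ASO among these lists. With Pint ASO 10 of 16 fell (62.5%) and 0 rose, with a median of -0.32, where 10.7% of all probe sets fell and 8.49% rose. With p53 siRNA 4 rose and 4 fell (25% each), where 7.97% of all probe sets rose and 8.96% fell. The syndecan gene Sdc1 fell with Pint ASO by 0.59, the sarcoglycan gene Sgcb by 0.55 and Bcam, a receptor for laminin alpha-5, by 0.53. With p53 siRNA the agrin receptor gene Lrp4 rose by 0.51, Sdc4 by 0.30 and Sgcb by 0.26, and Bcam fell by 0.69, Sdc1 by 0.24 and the glypican gene Gpc1 by 0.22. Bcam, Sdc1, Gpc1 and Cd151 fell with both knockdowns, while Sdc4, Sgcb and Dag1 rose with p53 siRNA and fell with Pint ASO.

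Of the integrin ligands outside the basement membrane, 6 of 19 rose and 5 fell with p53 siRNA (31.6% and 26.3%), where 7.97% of all probe sets rose and 8.96% fell. With Pint ASO 2 rose and 10 fell (10.5% and 52.6%), where 8.49% of all probe sets rose and 10.7% fell. The share that rose with Pint ASO was thus near that of all probe sets. The collagen gene Col3a1 rose with p53 siRNA by 0.67, the periostin gene Postn by 0.49 and Vcam1 by 0.44, and Icam1 fell by 0.61, Edil3 by 0.38 and Ccn2 by 0.25. With Pint ASO Ccn2 rose by 0.60 and Ccn1 by 0.29, and Col3a1 fell by 0.95, Col1a2 by 0.67 and Col1a1 by 0.62. Col3a1 thus had the same directions as the collagen receptor gene Itga11, and Itga2, also a collagen receptor gene, had the opposite ones.

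**Figure D5:**
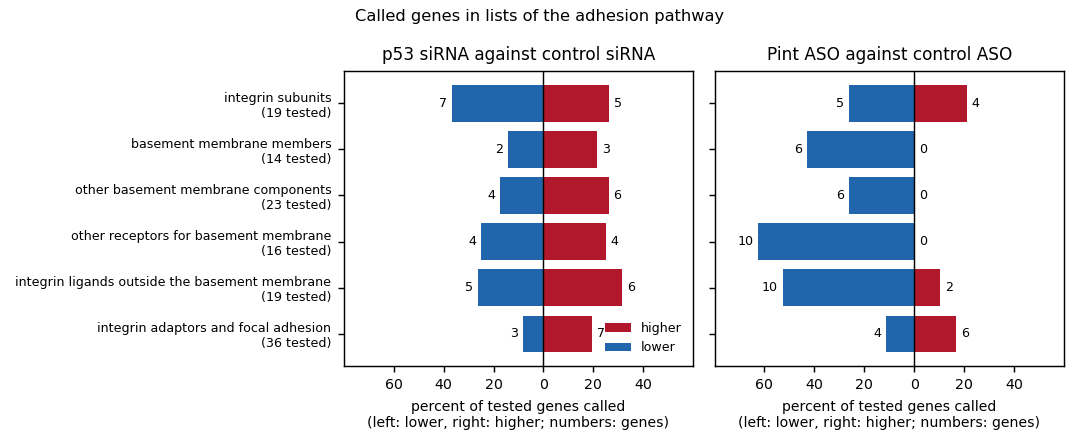
The percent of tested genes called higher (red, to the right) and lower (blue, to the left) in the integrin subunits, the basement membrane members and 4 other lists of the pathway, with p53 siRNA (left panel) and with Pint ASO (right panel), and the number of genes beside each bar. In the right panel 3 lists have 0 genes higher, and 10 of 16 other receptors are lower.

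Fibroblast markers had the directions of Itga11, Itgb5, Itgb8, Lama4 and Nid2. Of the 10 on the list, 6 rose (60%) and 0 fell with p53 siRNA, where 7.97% of all probe sets rose and 8.96% fell. With Pint ASO 0 rose and 8 fell (80%), where 8.49% of all probe sets rose and 10.7% fell. Their summed linear intensity was 66687 to 67226 with p53 siRNA, against 58223 to 59597 with control siRNA, and 44920 to 46508 with Pint ASO, against 55958 to 56039 with control ASO. The groups did not overlap in either arm. Col1a1 and Col1a2 are on this list and on that of the ligands. Of the 8 smooth muscle markers, 2 rose and 1 fell with p53 siRNA (25% and 12.5%), and 1 rose and 3 fell with Pint ASO (12.5% and 37.5%). Their sums were 34163 to 35672 with p53 siRNA, against 32539 to 34440 with control siRNA, and 28335 to 28900 with Pint ASO, against 30303 to 31188 with control ASO.

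Markers of other cell types were counted in the same way. In the lists with a call, 1 gene called in a direction is 11.1% to 14.3% of the markers tested. That is near the 7.97% to 10.7% of all probe sets called in a direction. Of the 9 endothelial markers tested, 1 rose with p53 siRNA, and with Pint ASO Kdr rose by 0.77, Esam rose by 0.55 and Tek fell by 0.17. The 2 that rose with Pint ASO are 22.2% of those tested, where 8.49% of all probe sets rose. The endothelial sum was 1525 to 1611 in Pint ASO arrays, against 1273 to 1376 in control ASO arrays, with no overlap. Of the 9 leukocyte markers tested, Cd68 alone was called, and it fell by 1.04 with p53 siRNA and by 0.47 with Pint ASO, with a sum of 1494 to 1542 in p53 siRNA arrays, against 2202 to 2252 in control siRNA arrays. Of the 8 epithelial markers tested, Krt18 fell with p53 siRNA by 0.20 and Cdh1 with Pint ASO by 0.68, and the sums were 2008 to 2103 with p53 siRNA, against 2109 to 2215 with control siRNA, and 1939 to 2084 with Pint ASO, against 1996 to 2091 with control ASO. Of 6 skeletal muscle markers tested 0 were called, and of 7 neural markers Mbp rose with Pint ASO by 0.18. The part of the marker changes in the integrin and basement membrane results was not tested.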

How the data were processed

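The authors hybridised RNA (300 ng) from each sample to an Affymetrix mouse whole-transcript array and deposited log2 intensities per probe set, made with RMA (background correction, quantile normalization and summarization, version not given in the sources used here). The main and supplementary methods name different array models. Probe set numbers matched the annotation of the whole-transcript model, in which 21640 of 34760 probe sets carry 1 gene symbol. Genes were named from these alone. With a log2 filter of 6 in at least 2 arrays of a group, 26038 probe sets were tested. All 11 arrays entered 1 limma fit (version 3.58.1, R 4.3.3) on group means without a trend, which gave all standard errors and adjusted p-values. The step was tested on simulated data. An array has no read depth, so precision rests on the number of arrays.

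Every member is named, with values per array where it passed a test, and from each other list up to 3 called genes per direction and knockdown with the largest change. Members, lists and tests were chosen with earlier results of these data known. Percent of control is 2 to the power of the log2 difference. Alternatives covered the filter, the moderation, the arrays fitted, the normalization, the probe sets used, a threshold of B over 3 (1 part of the study's criteria), replicate blocks and leaving out each array. Same-numbered siRNA arrays were not treated as pairs, since their deviations from the group means correlated at -0.284, -0.181 and -0.0371. The numbers of the control ASO arrays differ between titles and descriptions. For 11 members no promoter entry was used. Promoter sequences and their coordinates are those of RefSeq, and gene coordinates are not given, since the files name no build.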

Additional observations from a re-analysis of the deposited data

Results flagged for a closer look

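For 14 members the change with Pint ASO differed from the change with p53 siRNA in limma's test of the difference itself (adjusted p under 0.05). For the 9 called in opposite directions with the knockdowns, those calls all but fixed this outcome. The log2 differences, Pint effect minus p53 effect, were 1.64 for Itga2, 1.38 for Itga6, 0.60 for Itgb4, 0.47 for Itgb3 and 0.33 for Itga8. Of these, Itga2, Itga6, Itgb4 and Itgb3 rose with Pint ASO, while Itga8 fell with both knockdowns, less with Pint ASO. The differences were -1.50 for Itgb8, -1.36 for Itga11, -1.11 for Lama4, -0.99 for Nid2, -0.86 for Itga1, -0.63 for Itgb5, -0.31 for Agrn, -0.29 for Lamb2 and -0.23 for Hspg2, all of which fell with Pint ASO.

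The weakest of these were Hspg2 (adjusted p = 0.0395), which lost the call in 10 of the 11 fits without 1 array (adjusted p = 0.0531 to 0.131, the exception being the fit without Pint ASO replicate 2), and Itga8 (adjusted p = 0.0348), which lost it in 7 (adjusted p = 0.0521 to 0.095), namely without either control ASO array, any p53 siRNA array or control siRNA replicate 1 or 3. Lamb2 lost it without control ASO replicate 1 (adjusted p = 0.0504). The other 11 kept the call in every such fit. The groups of 2 or 3 arrays were too small for a check of single outlying arrays.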

How the results depend on the processing

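No member call reversed under any alternative run. Of 2739 single-member values under alternatives, 2628 kept their side of the threshold, 106 lost the call and 5 gained it. For B over 3 the share of all probe sets is not given here. The members called at that cut-off were 5 with p53 siRNA, 6 with Pint ASO, 7 for the difference between the effects and 0 between the controls. Fitted on only the arrays compared, they were 7 with Pint ASO and 0 between the controls, with fewer arrays to estimate the spread. Leaving out 1 array gave 10 to 18 with p53 siRNA, 12 to 15 with Pint ASO, 11 to 14 for the difference and 2 to 5 between the controls, where the lone control ASO array was assumed to vary like the other groups. The filters, normalizations, moderation and choice of probe sets left these counts within 1.5 times their values.

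A replicate block by title number gave 15 members with p53 siRNA, 13 with Pint ASO, 12 for the difference and 5 between the controls, and by description number 14, 13, 12 and 4. In the ASO arm, deviations of same-numbered arrays correlated at -0.0463 and -0.42 by title and at 0.42 and 0.375 by description. With the number as a block by title, Itgav (adjusted p = 0.0992) and Itgb3 (adjusted p = 0.0793) lost the p53 siRNA call, Itgb4 (adjusted p = 0.0556) and Lamb2 (adjusted p = 0.0759) the Pint ASO call, and Itga8 (adjusted p = 0.0526) and Hspg2 (adjusted p = 0.0859) the call of the difference. By description the same calls were lost (adjusted p = 0.0808, 0.0763, 0.0707, 0.0684, 0.0668 and 0.0951), and also the p53 siRNA call of Itga9 (adjusted p = 0.053) and the control call of Itga1 (adjusted p = 0.0508).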
